A study of Homo sapiens with 14 samples.

Results

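The Hippo-YAP genes described here were 10 genes chosen by name from the 60624 gene identifiers listed in each library. They were the transcriptional co-activators YAP1 and WWTR1 (which encodes TAZ), the DNA-binding partners TEAD1, TEAD2, TEAD3 and TEAD4, and the target genes CCN1 (also CYR61), CCN2 (also CTGF), ANKRD1 and AMOTL2. The rule is a list of names with no threshold on a measured value, drawn up with earlier results of these data known. Levels are in TPM, a relative abundance that divides out transcript length and library total, so levels of different genes can be compared within a library. All 10 genes were above 1 TPM in all 14 libraries.

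The Hippo pathway is a kinase cascade that restrains YAP1 and TAZ. When the kinases MST (STK3 and STK4) and LATS are active, the co-activators are phosphorylated and kept out of the nucleus, and when they are not, the co-activators enter the nucleus and bind TEAD proteins on DNA. In the developing pancreas YAP1 is found in progenitors and duct cells and is lost as endocrine cells form. RNA levels do not show phosphorylation or location in the cell.

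The libraries came from the human embryonic stem cell line MEL1, which the methods of the study give as INS GFP/W, a line with a green fluorescent protein reporter at 1 INS allele, and they followed its differentiation to pancreatic β-like cells. Batch 1, as the labels call it, held 1 library each of undifferentiated cells (hPSC), definitive endoderm (DE), pancreatic progenitors (PP2) and β-like cells made straight from stem cells (SC-β). Batch 2 held 2 libraries each of expandable pancreatic progenitors (ePPs) at passage 9 (ePP-P9) and passage 21 (ePP-P21) and of β-like cells made from ePPs (ePP-β). Batch 3 held 2 libraries each of pancreatic progenitors treated for 7 days with DMSO or 1 μM I-BET151, which blocks BET bromodomain proteins. The hPSCs were grown on CF1 feeder cells and the ePPs on feeder cells, and the ePP medium itself contained 1 μM I-BET151 and a TGFβ receptor inhibitor. Per the methods, that inhibitor was also in the basal medium of the chemical screen and in the last differentiation media. Apart from the compound, the medium of the batch 3 libraries is not given in the labels. The labels do not say that replicate libraries came from separate cultures, so a p-value here measures the spread between these libraries, which may be technical.

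Between 14982 and 17578 genes per library reached 1 TPM. Read depth is not recorded in TPM and is unknown. All 37 mitochondrial genes were listed at 0 in all 14 libraries, so an exact 0 may be a value that was not estimated. Defining markers were present where the labels placed them: POU5F1 was at 3401 TPM in hPSC, SOX17 at 1140 TPM in DE, PDX1 at 251 TPM in PP2 and INS at 10916 TPM or more in the β-like libraries. Those libraries were not of insulin RNA alone. The glucagon gene GCG was at 14107 and 13360 TPM in ePP-β, where INS was at 10916 and 17374 TPM. In SC-β, GCG was at 74281 TPM, above INS at 20658 TPM, and the somatostatin gene SST was at 2757 TPM. PP2 and SC-β also carried all 10 mesenchyme markers at 1 TPM or more, with summed levels of 1570 and 2802 TPM against 47.4 to 95.1 TPM in the 6 libraries of batch 2. In bulk RNA, fewer cells of a type and less RNA per cell cannot be told apart.

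Of the 10 genes, 7 had a promoter window in the RefSeq table used here (GRCh38.p14). CCN1, TEAD1 and TEAD4 had none. The 250 bases before the transcription start were searched for the TEAD core motif GGAATG on both strands (GGAATG or CATTCC). The 7 genes had 10 windows, since 3 genes had 2 each. The motif was present in 4 of the 10 windows (YAP1, CCN2, ANKRD1 and 1 of 2 of AMOTL2) and in 11.9% of all 35116 windows of this length, and 0.928% of all windows held 2 or more matches. CCN2 held 3 matches and ANKRD1 held 2, and their windows are shown because these target genes held more than 1 match. YAP1, with 1 match, is shown for comparison with them. Capitals mark the motif.
CCN2 (chr6:131951373-131951622, minus strand): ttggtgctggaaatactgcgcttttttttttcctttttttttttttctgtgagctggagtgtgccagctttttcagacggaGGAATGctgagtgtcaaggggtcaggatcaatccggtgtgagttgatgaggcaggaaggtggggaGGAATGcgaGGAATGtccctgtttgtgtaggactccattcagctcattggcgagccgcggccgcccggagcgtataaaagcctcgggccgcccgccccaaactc
ANKRD1 (chr10:90921088-90921337, minus strand): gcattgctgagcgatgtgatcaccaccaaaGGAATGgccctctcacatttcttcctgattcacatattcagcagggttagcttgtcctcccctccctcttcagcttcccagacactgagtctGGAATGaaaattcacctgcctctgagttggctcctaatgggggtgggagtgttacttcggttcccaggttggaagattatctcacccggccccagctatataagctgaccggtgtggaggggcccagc
YAP1 (chr11:102110197-102110446, plus strand): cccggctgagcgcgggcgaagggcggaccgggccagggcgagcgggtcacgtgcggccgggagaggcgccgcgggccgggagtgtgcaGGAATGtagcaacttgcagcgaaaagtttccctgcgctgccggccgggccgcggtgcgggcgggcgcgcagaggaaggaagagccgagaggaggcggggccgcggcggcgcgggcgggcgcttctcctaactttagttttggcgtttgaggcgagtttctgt

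Counted back from the start, the motifs began 169, 104 and 95 bases upstream in CCN2, 220 and 128 bases upstream in ANKRD1 and 162 bases upstream in YAP1. A match of letters is a description and does not show binding. WWTR1, TEAD2 and TEAD3 had no match in these windows.

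The co-activators were among the more abundant transcripts in all 14 libraries. YAP1 (ENSG00000137693, GRCh38 chr11:102110447-102233424) stood above 93.2% or more of the listed genes in each library. Its level was 76.7 TPM in hPSC, 92.7 TPM in DE and 138 TPM in PP2, the highest of the 14 libraries. It was 91.7 and 107 TPM in ePP-P9, then 98.7 and 113 TPM in ePP-P21, and 42.5 and 51.5 TPM in ePP-β. In SC-β it was 35.2 TPM, the lowest of the 14 libraries. The DMSO libraries had 66.5 and 77.3 TPM and the I-BET151 libraries 86.6 and 125 TPM. Ordered by their means, PP2, the ePP groups and the I-BET151 group lay at the top and both β-like groups at the bottom. The ranges of ePP-P21, I-BET151 and ePP-P9 overlapped in that order, and the DE library lay within those of I-BET151 and ePP-P9. Those of hPSC and DMSO overlapped as well, while ePP-β and SC-β lay below every other library.

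WWTR1 (ENSG00000018408, GRCh38 chr3:149517235-149736714), the gene of the second co-activator TAZ, varied the least of the 10 genes. Its highest level (42.7 TPM, ePP-P21 replicate 2) was 1.88 times its lowest (22.7 TPM, SC-β), against 3.93 times for YAP1. It was 28.7 TPM in hPSC, 28.1 TPM in DE and 31.1 TPM in PP2. In batch 2 it was 36.6 and 37.1 TPM in ePP-P9, then 37.1 and 42.7 TPM in ePP-P21, and 32.8 and 28.9 TPM in ePP-β. The DMSO libraries had 31.1 and 25.0 TPM and the I-BET151 libraries 31.5 and 31.8 TPM. YAP1 therefore made up 72.8% of the summed co-activator TPM in hPSC, 76.8% in DE and 81.7% in PP2. Its share was 71.5% to 74.2% in the 4 ePP libraries, 56.4% and 64.0% in ePP-β, and 60.8% in SC-β.

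**Figure D1:**
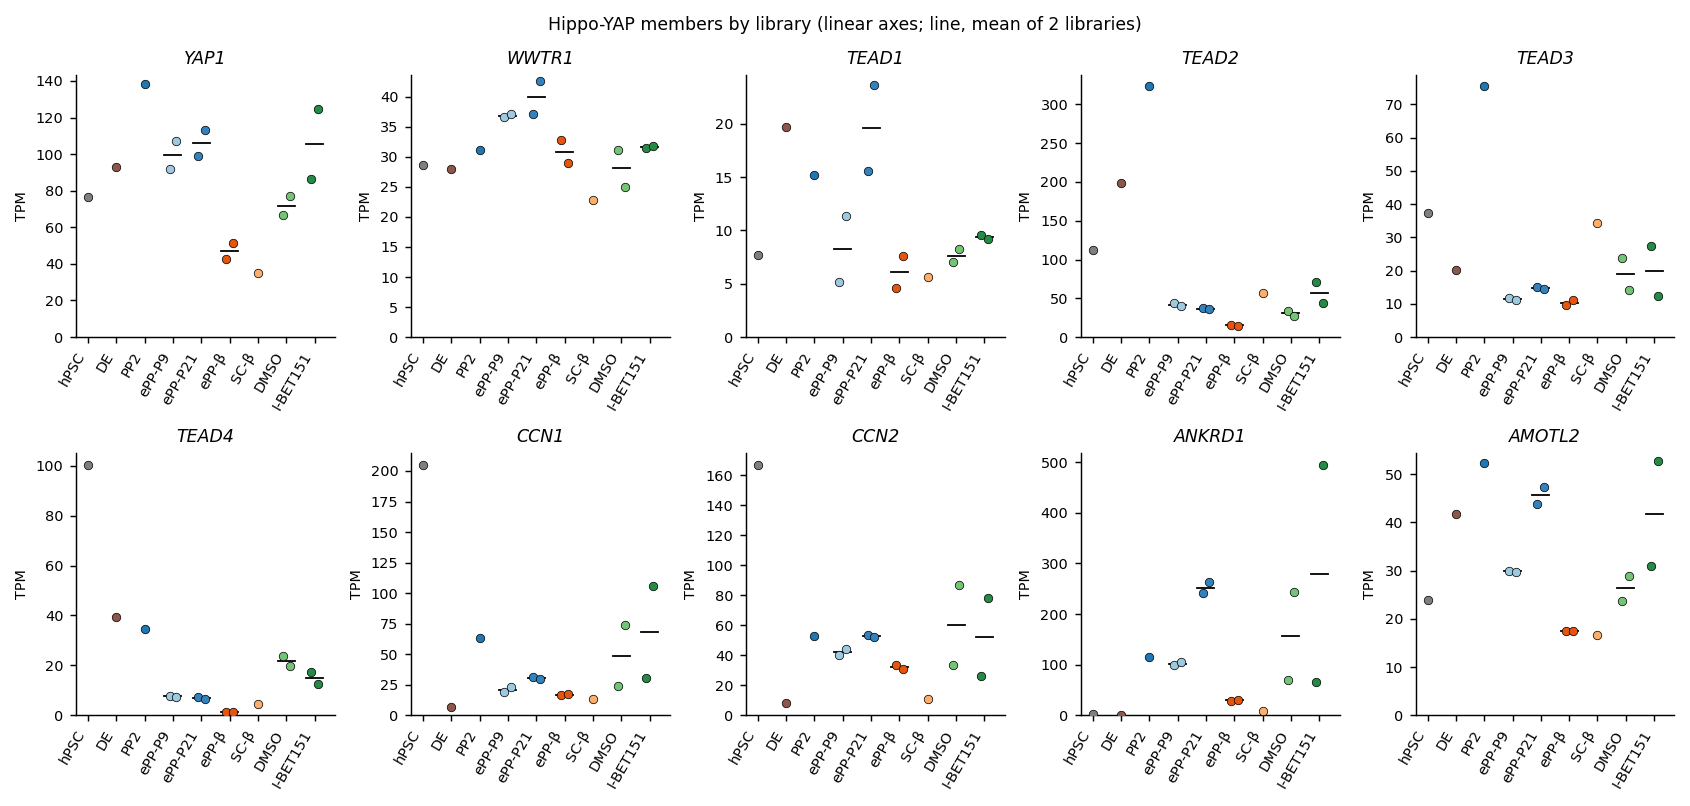
Level of each of the 10 Hippo-YAP genes (TPM, linear axes that differ between genes) in the 9 groups. Each point is 1 library and a line marks the mean where a group had 2. YAP1 was lowest in ePP-β and SC-β (35.2 to 51.5 TPM), TEAD2, TEAD3 and TEAD4 were at their highest in batch 1, and CCN1 and CCN2 peaked in hPSC.

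The TEAD genes encode the proteins through which YAP1 and TAZ reach DNA. TEAD2 (ENSG00000074219, GRCh38 chr19:49340595-49362457) had the highest level of the 4 in all 14 libraries. It was 113 TPM in hPSC, 198 TPM in DE and 323 TPM in PP2. It was 43.5 and 39.6 TPM in ePP-P9, then 37.0 and 36.1 TPM in ePP-P21, 16.2 and 14.8 TPM in ePP-β, and 56.5 TPM in SC-β. The DMSO libraries had 34.0 and 27.8 TPM and the I-BET151 libraries 70.5 and 43.3 TPM. The 3 early libraries of batch 1 lay above the other 11 libraries.

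TEAD4 (ENSG00000197905, GRCh38 chr12:2959330-3040676) had the widest range of the 4, its highest level being 73.7 times its lowest. It was 100 TPM in hPSC, 39.5 TPM in DE, 34.8 TPM in PP2 and 4.57 TPM in SC-β. It was 7.96 and 7.53 TPM in ePP-P9, then 7.44 and 6.41 TPM in ePP-P21, and 1.36 and 1.48 TPM in ePP-β. The DMSO libraries (23.6 and 19.8 TPM) lay above the I-BET151 libraries (17.6 and 12.7 TPM), and all 4 lay above the ePP libraries.

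TEAD3 (ENSG00000007866, GRCh38 chr6:35473597-35497079) was highest in PP2 (75.7 TPM) and was 37.4 TPM in hPSC, 20.3 TPM in DE and 34.4 TPM in SC-β. In batch 2 it stayed between 9.59 and 15.2 TPM. In batch 3 it was 23.8 and 14.2 TPM with DMSO and 27.5 and 12.3 TPM with I-BET151, so the treatment groups overlapped. TEAD1 (ENSG00000187079, GRCh38 chr11:12674421-12944737) was the lowest of the 4 in hPSC (7.66 TPM), DE (19.7 TPM) and PP2 (15.2 TPM). It was 5.19 and 11.4 TPM in ePP-P9, then 15.6 and 23.7 TPM in ePP-P21, 4.58 and 7.57 TPM in ePP-β, 5.64 TPM in SC-β, 7.00 and 8.25 TPM with DMSO and 9.56 and 9.17 TPM with I-BET151. Its 2 ePP-P9 libraries differed by more than the DMSO libraries differed from the I-BET151 libraries.

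Summed over the 4 genes, TEAD transcripts were at 258 TPM in hPSC, 278 TPM in DE and 449 TPM in PP2. They were at 68.5 and 69.7 TPM in ePP-P9, then 75.1 and 80.7 TPM in ePP-P21, and 31.8 and 34.9 TPM in ePP-β. SC-β was at 101 TPM, DMSO at 88.4 and 70.1 TPM, and I-BET151 at 125 and 77.6 TPM. The co-activators moved less than this. The ratio of YAP1 plus WWTR1 to the TEAD sum was 0.377 to 0.435 in hPSC, DE and PP2, 1.81 to 2.07 in the 4 ePP libraries, 2.37 and 2.30 in ePP-β, and 0.573 in SC-β. These libraries were prepared in different batches, and batch and cell stage cannot be told apart in the ratio between hPSC, DE or PP2 and the ePPs.

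**Figure D2:**
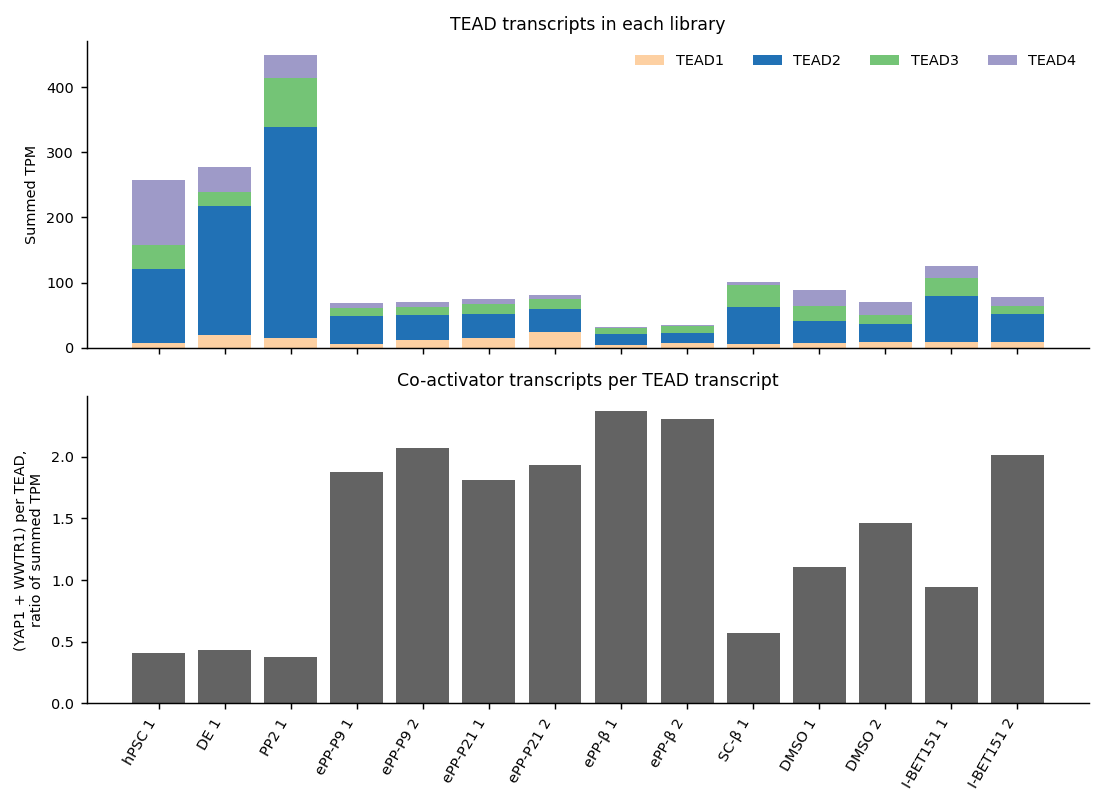
Upper panel, TEAD1 to TEAD4 stacked to their summed TPM in each of the 14 libraries; lower panel, summed TPM of YAP1 and WWTR1 divided by the TEAD sum (a ratio, axis from 0). The TEAD sum was 258 to 449 TPM in the first 3 libraries and at most 125 TPM in the others, and the ratio was 0.573 or less in the 4 libraries of batch 1.

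CCN1 and CCN2 encode secreted matrix-associated proteins and are the most widely used readouts of YAP-TEAD activity. CCN1 (ENSG00000142871, GRCh38 chr1:85580761-85584589) was 205 TPM in hPSC, 7.15 TPM in DE, 63.1 TPM in PP2 and 13.1 TPM in SC-β. CCN2 (ENSG00000118523, GRCh38 chr6:131948176-131951372) was 167 TPM in hPSC, 8.37 TPM in DE, 52.7 TPM in PP2 and 10.8 TPM in SC-β. Both genes were highest in hPSC and lowest in DE of all 14 libraries. Over the 9 group means their log2 levels correlated at r = 0.921, a description over 9 points from 3 batches.

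In the replicated groups, CCN1 was 19.3 and 23.0 TPM in ePP-P9, then 31.3 and 29.4 TPM in ePP-P21, and 16.9 and 17.2 TPM in ePP-β. CCN2 was 40.3 and 43.9 TPM in ePP-P9, then 53.8 and 52.1 TPM in ePP-P21, and 33.7 and 30.8 TPM in ePP-β. For both genes every ePP-P21 library lay above every ePP-P9 library, which lay above every ePP-β library. In batch 3, CCN1 was 24.0 and 73.6 TPM with DMSO and 30.7 and 106 TPM with I-BET151, and CCN2 was 33.4 and 86.5 TPM with DMSO and 26.5 and 78.2 TPM with I-BET151. There the second library of each group was far above the first.

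ANKRD1 (ENSG00000148677, GRCh38 chr10:90912096-90921087), which encodes an ankyrin-repeat protein best known in heart and skeletal muscle, had the widest range of the 10 genes, 285 times from lowest to highest. It was 2.76 TPM in hPSC, 1.73 TPM in DE, 116 TPM in PP2 and 8.31 TPM in SC-β. It was 99.6 and 105 TPM in ePP-P9, then 242 and 262 TPM in ePP-P21, and 29.0 and 30.9 TPM in ePP-β. In batch 3 it was 70.2 and 243 TPM with DMSO and 65.3 and 494 TPM with I-BET151. Unlike CCN1 and CCN2 it was low in hPSC and high in the progenitor libraries.

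AMOTL2 (ENSG00000114019, GRCh38 chr3:134355347-134375479) encodes an angiomotin-like protein that binds YAP1 and holds it in the cytoplasm, so this target is also an inhibitor of the pathway. It was 23.9 TPM in hPSC, 41.8 TPM in DE, 52.3 TPM in PP2 and 16.7 TPM in SC-β. It was 29.9 and 29.8 TPM in ePP-P9, then 43.9 and 47.4 TPM in ePP-P21, and 17.5 TPM in both ePP-β libraries. In batch 3 it was 23.7 and 29.0 TPM with DMSO and 31.1 and 52.6 TPM with I-BET151. The processed pseudogene RPL39P5 (4.95 to 31.8 TPM) lies inside AMOTL2 on the same strand, and CD37 (up to 15.3 TPM) and DKKL1 (up to 11.3 TPM) overlap TEAD2 on the other strand. Whether the counting used strand is not given in the sources used here, so reads from such overlaps cannot be told apart.

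Between single libraries of batch 1 there is no replicate check and no test, and the 10 genes are given by whether they passed a 2-fold difference on the log2(TPM + 1) scale. From hPSC to DE, 4 of 10 passed, where 26.9% of all 17807 genes kept did. TEAD1 was higher in DE by 1.26 on the log2 scale, and TEAD4 (-1.32), CCN1 (-4.66) and CCN2 (-4.16) were lower. YAP1 (0.27) and WWTR1 (-0.03) were close to level. The hPSC library also had the mesenchyme markers COL1A1 at 195 TPM and THY1, which stem cells also express, at 342 TPM. They were at 17.5 and 10.0 TPM in DE, with COL3A1 near 0 in both (0.011 TPM and 0.00051 TPM). The other mesenchyme markers were divided. PDGFRB (-1.75) and COL1A2 (-0.24) were lower in DE, PDGFRA (1.45) and TWIST1 (0.30) were higher, and LUM, DCN and POSTN were under 1 TPM in both libraries. Culture format also changed, since hPSCs were grown on feeder cells and the methods describe differentiation as aggregates on a shaker. The part of these markers and of the format in the CCN1 and CCN2 differences was not tested.

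From DE to PP2, 4 of 10 genes passed 2-fold, all higher in PP2, where 27.2% of all 18578 genes kept were higher by that much. They were TEAD3 (1.85), CCN1 (2.97), CCN2 (2.52) and ANKRD1 (5.42). From PP2 to SC-β, 9 of 10 genes passed and were lower in SC-β, where 22.1% of all 18894 genes kept were lower by that much. The largest differences were in ANKRD1 (-3.65), TEAD4 (-2.68) and TEAD2 (-2.49), YAP1 was lower by 1.94, and only WWTR1 stayed within 2-fold (-0.43). The median difference of the 10 genes was -2.06, against -0.37 for all genes. Centring each library on its median left 7 genes lower by 2-fold and quantile normalization 8. The 22.1% share belongs to the values before centring, and no matching share is given here for these alternatives.

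Other cell types moved with these differences. All 10 mesenchyme markers (summed 58.7 TPM in DE, 1570 TPM in PP2 and 2802 TPM in SC-β) and all 4 endothelial markers (5.84, 81.0 and 5.43 TPM) passed 2-fold upward from DE to PP2. COL3A1 was 779 TPM in PP2 and 1210 TPM in SC-β, and CDH5, an endothelial cadherin, was 22.3 TPM in PP2 and 0.035 TPM in SC-β. CCN1, CCN2 and ANKRD1 are also expressed by such cells. Their part in the differences was not tested. From PP2 to SC-β the mesenchyme sum was higher while the 9 Hippo-YAP genes were lower, but the mesenchyme markers were divided. COL1A1, COL1A2, COL3A1, DCN, PDGFRB and POSTN were higher in SC-β, and LUM, PDGFRA, THY1 and TWIST1 were lower.

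Of the 3 comparisons with replicates, that of ePP-β cells with ePPs had the most of the 10 genes passing. From which passage the ePP-β cells were made is not given in the labels. YAP1, TEAD2, TEAD4, ANKRD1 and AMOTL2 fell in ePP-β, and none of the 10 rose. This test was made with limma over 18076 genes in the 6 libraries of batch 2, the ePP level being the mean of both passages, and a gene passed when its log2 fold change was beyond 1 and its p, adjusted by Benjamini-Hochberg, was under 0.05. So 5 of 10 genes passed as lower, where 9.86% of all tested genes did, and 27.8% passed in either direction. The 10 genes had a median log2 fold change of -0.99, against -0.03 over the whole fit.

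ANKRD1 fell the most (log2 fold change -2.38, SE 0.07, adjusted p = 7.59e-06, limma), followed by TEAD4 (by 1.78, SE 0.15, adjusted p = 0.000205) and TEAD2 (by 1.28, SE 0.09, adjusted p = 0.000108). YAP1 fell by 1.11 (SE 0.12, adjusted p = 0.000502) and AMOTL2 by 1.03 (SE 0.08, adjusted p = 0.000169), both close to the limit of 1. Without ePP-β replicate 1 the YAP1 difference was -0.98 and no longer passed the fold limit. CCN1 (-0.55, adjusted p = 0.00621), CCN2 (-0.54, adjusted p = 0.00241) and WWTR1 (-0.30, adjusted p = 0.0411) also had an adjusted p under 0.05, with a smaller fold change, which makes 8 of 10 genes lower by that measure alone, where 28.2% of tested genes were. TEAD3 (-0.32, adjusted p = 0.0659) and TEAD1 (-0.94, adjusted p = 0.0609) missed the adjusted threshold. TEAD1 passed without ePP-P9 replicate 1 (-1.19) and after centring (-1.08).

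All 10 estimates were below 0, while 8780 of the 18076 tested genes had estimates above 0. For 9 of the 10 genes both ePP-β libraries lay below all 4 ePP libraries, as they did for 31.6% of tested genes, and for TEAD1 the groups overlapped. The summed level of the 8 endocrine markers was 4.32 to 6.77 TPM in the ePP libraries and 42059 and 46647 TPM in the ePP-β libraries, where INS was at 10916 and 17374 TPM. TPM is a share of the library, so a large gain in some genes lowers the share left for others. With each library centred on its median, 6 of the 10 genes passed as lower and none as higher, and the same counts came from quantile normalization. The count of all tested genes passing as lower rose as well with both. With quantile normalization it was 2866 of 18076, against 1783 in the main fit. The culture medium changed with the cell type in this comparison, and the differentiation media of the study list no I-BET151. Culture format changed too, since ePPs grew on feeder cells and the methods describe ePP-β cells as clusters. Medium, format and cell type cannot be told apart.

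**Figure D3:**
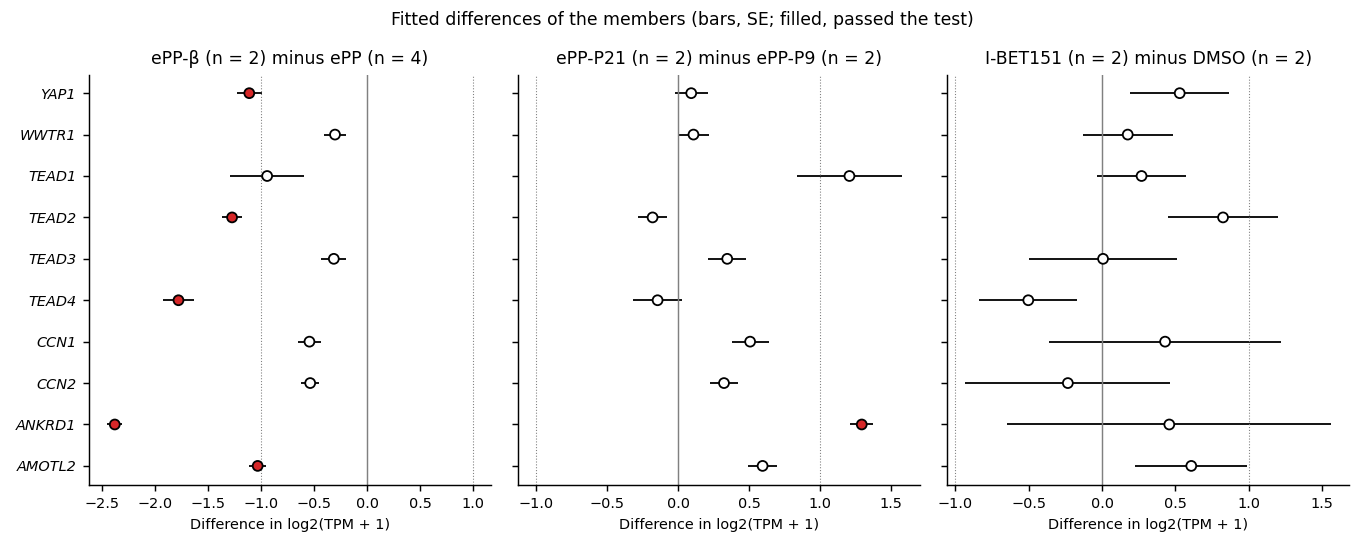
Fitted difference in log2(TPM + 1) of each of the 10 genes (points, with SE as bars) in the comparisons of ePP-β with ePP, ePP-P21 with ePP-P9 and I-BET151 with DMSO. Filled points passed the test (5 genes, 1 gene and 0 genes) and dotted lines mark the fold limit of 1; the SE is much wider in the I-BET151 comparison.

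The upstream pathway genes did not all move one way in ePP-β. Of the 12 core kinase cascade genes, 2 fell, 1 rose and 9 did not pass. Over all tested genes 9.86% passed as lower, 17.9% as higher and 27.8% in either direction. The same shares apply to the other lists of this comparison. LATS2, a kinase that phosphorylates YAP1, was 14.5 to 16.6 TPM in ePPs and 4.57 and 4.43 TPM in ePP-β (log2 fold change -1.58, adjusted p = 0.000114). The 2 MOB1 genes encode interchangeable activators of LATS kinases and went in opposite directions. MOB1A was 77.5 to 88.0 TPM in ePPs and 29.7 and 35.2 TPM in ePP-β (-1.31, adjusted p = 0.000138), whereas MOB1B was 15.9 to 22.1 TPM in ePPs and 59.5 and 58.9 TPM in ePP-β (1.58, adjusted p = 6.92e-05). The order of the pair was thus turned around, with MOB1A above MOB1B in all 4 ePP libraries and below it in both ePP-β libraries. SC-β showed the same order as ePP-β, with 21.7 TPM of MOB1A and 35.9 TPM of MOB1B.

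Of the 16 genes for scaffolds and junction proteins that act on the cascade, 15 were tested, 6 fell and none rose. AMOT, the angiomotin gene and a relative of AMOTL2, was 42.3 to 64.8 TPM in ePPs and 8.04 and 6.87 TPM in ePP-β (log2 fold change -2.66, adjusted p = 1.17e-05, limma). SCRIB, a polarity scaffold, was 49.5 to 54.2 TPM and then 16.6 and 16.5 TPM (-1.60, adjusted p = 2.50e-05). The median of the 15 was -0.72. VGLL4, which competes with YAP1 for TEADs, was the only 1 of 4 VGLL genes tested and fell (-1.34, adjusted p = 0.00483), from 33.0 to 56.4 TPM to 13.7 and 20.0 TPM.

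Other published YAP/TAZ target genes, 18 genes outside the 10 of which 15 were tested, were divided, with 3 higher, 3 lower and a median of -0.24. IGFBP3, which encodes a binding protein for insulin-like growth factors, was 13.7 to 18.2 TPM in ePPs and 671 and 951 TPM in ePP-β (log2 fold change 5.54, adjusted p = 5.91e-06, limma). TGFB2, a TGFβ ligand, was 0.924 to 2.01 TPM and then 35.6 and 28.0 TPM (3.75, adjusted p = 2.12e-05), and DOCK5 rose from at most 0.554 TPM to 2.57 and 3.58 TPM (1.59, adjusted p = 0.000691). The genes that fell were LATS2 and PTPN14 (-1.54, adjusted p = 0.00403), which also stand in the lists above, and ARHGEF17 (-1.33, adjusted p = 0.000256). Over all tested genes 17.9% passed as higher and 9.86% as lower, so passing in both directions was not particular to this list.

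Actin and smooth muscle genes driven by SRF, a factor that shares targets with YAP, were divided in ePP-β, with 4 of 8 passing as higher, where 17.9% of all tested genes did, and none as lower. ACTG2 was 0.027 TPM or less in the 4 ePP libraries and 10.7 and 8.60 TPM in ePP-β (log2 fold change 3.39, adjusted p = 2.32e-05, limma), CNN1 was 0.163 to 0.910 TPM and then 13.8 and 11.8 TPM (3.19, adjusted p = 0.000139), and MYL9 was 10.8 to 15.1 TPM and then 84.2 and 81.7 TPM (2.63, adjusted p = 2.08e-05). TAGLN was the other. ACTA2 (-0.74, adjusted p = 0.00367), VCL (-0.49, adjusted p = 0.00159) and SRF itself (-0.64, adjusted p = 0.00119) lay below all 4 ePP libraries in both ePP-β libraries, short of the fold limit. Immediate early genes, which respond within minutes to growth factors or handling, had 3 of 7 lower and none higher: FOS (-4.74, adjusted p = 0.0139), EGR1 (-3.92, adjusted p = 0.000469) and IER2 (-1.88, adjusted p = 0.000388). FOS ranged from 14.0 to 344 TPM among the ePP libraries, both extremes in ePP-P21. These lists bear on the 10 genes only as values that moved beside them, and their part was not tested.

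Markers of other cells were tested in the same fit. The summed mesenchyme markers were 60.8 to 95.1 TPM in ePPs and 59.8 and 47.4 TPM in ePP-β, with TWIST1 higher (1.59, adjusted p = 0.00244) and POSTN (-1.97, adjusted p = 0.00034) and PDGFRB (-1.15, adjusted p = 0.0055) lower by limma, and DCN and THY1 at 1.11 TPM or less in all 6 libraries. The endothelial markers summed to 0.820 TPM or less and CDH5 was listed at 0 in the 4 ePP libraries. Duct and epithelial markers were divided, with SPP1 (1.45, adjusted p = 0.00139) and CDH1 (1.02, adjusted p = 0.000506) higher and KRT8 (-2.45, adjusted p = 0.000456) and KRT18 (-1.71, adjusted p = 1.45e-05) lower. Of 6 tested progenitor markers 4 fell, among them ONECUT1 (-2.91, adjusted p = 0.000138) and PDX1 (-1.25, adjusted p = 3.82e-05).

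Passage 21 was set against passage 9 to ask whether long expansion alters ePPs. Only ANKRD1 passed the test among the 10 genes, from 99.6 and 105 TPM at passage 9 to 242 and 262 TPM at passage 21 (log2 fold change 1.29, SE 0.08, adjusted p = 0.0284, limma). That is 1 of 10 genes, where 1.07% of all 15822 tested genes passed as higher and 1.13% in either direction. The other target genes were higher in both ePP-P21 libraries than in both ePP-P9 libraries without passing: AMOTL2 by 0.60 (SE 0.10, adjusted p = 0.0542), CCN1 by 0.51 (SE 0.13, adjusted p = 0.107) and CCN2 by 0.32 (SE 0.10, adjusted p = 0.135). Such separation without overlap in the upward direction was seen in 41.3% of tested genes.

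Among the TEADs, TEAD1 was higher by 1.21 (SE 0.37, adjusted p = 0.142, limma) and TEAD3 by 0.35 (SE 0.14, adjusted p = 0.209), while TEAD2 (-0.18) and TEAD4 (-0.14) were slightly lower. TEAD1 passed without ePP-P9 replicate 2 (1.71, adjusted p = 0.011), the library with more TEAD1. As a share of the TEAD sum TEAD1 was 7.58% and 16.3% at passage 9 and 20.7% and 29.3% at passage 21, and TEAD2 was 63.5% and 56.9% and then 49.2% and 44.7%. These shares did not overlap between passages, but with 2 libraries against 2 a two-sided exact permutation test cannot go below p = 0.333. YAP1 (0.09) and WWTR1 (0.11) were close to level, and centring on the median turned both to just below 0 (-0.11 and -0.10).

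Over the whole fit the median difference between passages was 0.13 on the log2 scale, and the changes are given with and without that shift. After centring, the 10 genes had a median of 0.13, none passed and ANKRD1 stood at 1.09 (adjusted p = 0.051, limma). The ANKRD1 call was also lost without the filter on low values (adjusted p = 0.203), without the intensity trend (adjusted p = 0.074), with all 10 replicated libraries in the fit (adjusted p = 0.845) and without either ePP-P21 library (adjusted p = 0.0974 and 0.131), and its log2 fold change stayed between 1.09 and 1.35 throughout. Of the other lists no gene passed. The other YAP/TAZ targets had 12 of 14 tested genes above 0 with a median of 0.53, and the mesenchyme markers 5 of 5 with a median of 0.38, where 10776 of all 15822 genes were above 0. After centring these were 9 of 14 with a median of 0.32 and 5 of 5 with a median of 0.18, where 6380 of all genes were above 0.

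I-BET151 was set against DMSO to ask which genes respond when progenitors are treated. None of the 10 genes passed, and none had an unadjusted p under 0.05 in limma. This fit had no term for replicate number, although replicate differences correlated between DMSO and I-BET151 at r = 0.675 over all genes. With the replicate number as a block, described in the closing section, still none passed, but some of the 10 had an unadjusted p under 0.05. The test had little reach here: 0.21% of all 16687 genes passed (1 higher and 34 lower) and 15.2% reached 0.05 before adjustment. Among the 10, the biggest estimates were for TEAD2 (0.82, SE 0.37, adjusted p = 0.385), AMOTL2 (0.61, SE 0.38, adjusted p = 0.516), YAP1 (0.53, SE 0.34, adjusted p = 0.522) and TEAD4 (-0.50, SE 0.33, adjusted p = 0.536). With SEs of this size a difference of 2-fold in a single gene could be missed, so these values do not show that the genes were unaffected. YAP1, WWTR1, TEAD1, TEAD2 and AMOTL2 were higher and TEAD4 was lower in both I-BET151 libraries, and the other 4 genes overlapped. Of all tested genes 28.7% lay higher without overlap and 18% lower.

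CCN1, CCN2 and ANKRD1 had the widest errors of the 10 genes here, and their levels differed strongly between replicates. From replicate 1 to replicate 2, CCN1 differed by 1.57 on the log2 scale in DMSO and by 1.75 in I-BET151, CCN2 by 1.35 and 1.53, and ANKRD1 by 1.78 and 2.90, against a median size over all tested genes of 0.41 and 0.49. AMOTL2 differed by 0.28 and 0.74, YAP1 by 0.21 and 0.52, and TEAD3 by -0.70 and -1.09. ATF3, a stress-response gene, was 6.13 and 45.2 TPM in DMSO and 6.72 and 60.1 TPM in I-BET151, a difference of 2.70 and 2.98 between replicates. The part of that shift in the target genes was not tested. The I-BET151 estimates were 0.43 for CCN1 (SE 0.79), -0.23 for CCN2 (SE 0.70) and 0.46 for ANKRD1 (SE 1.10), all smaller than their SE.

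**Figure D4:**
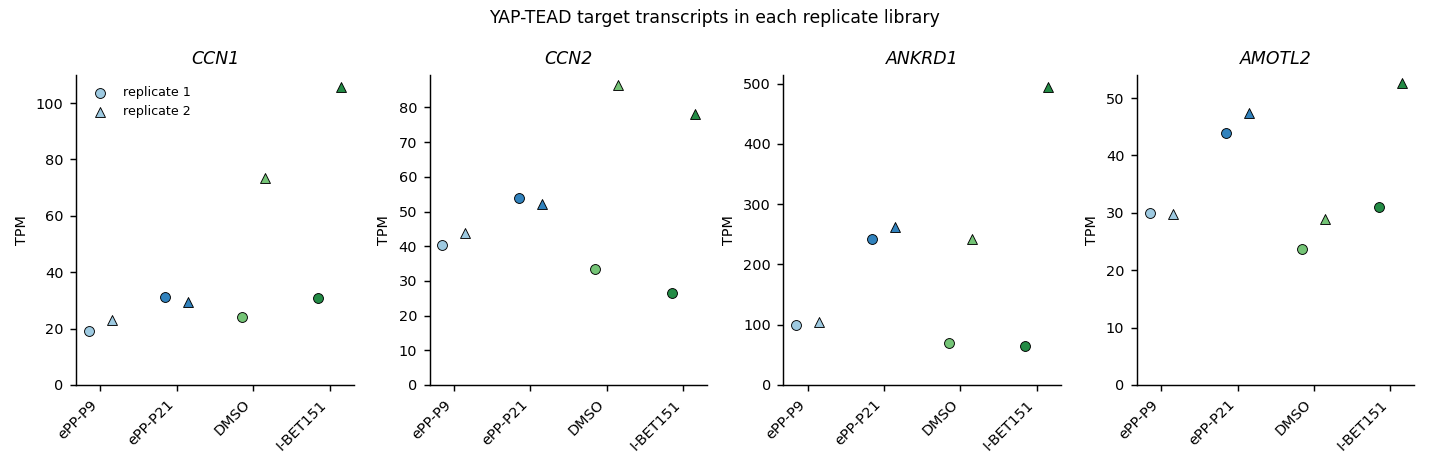
CCN1, CCN2, ANKRD1 and AMOTL2 (TPM, linear axes from 0) in the ePP-P9, ePP-P21, DMSO and I-BET151 groups, with circles for replicate 1 and triangles for replicate 2. The replicates of each ePP group lie close together, whereas in both batch 3 groups the triangle lies well above the circle for CCN1, CCN2 and ANKRD1 (65.3 and 494 TPM of ANKRD1 with I-BET151).

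The TEAD2 and TEAD4 shares of the TEAD pool differed little between replicates, unlike the TEAD1 share, which was 7.92% and 11.8% with DMSO and 7.65% and 11.8% with I-BET151. TEAD2 was 38.5% and 39.7% of the TEAD sum with DMSO and 56.3% and 55.8% with I-BET151, and TEAD4 was 26.7% and 28.2% with DMSO and 14.0% and 16.4% with I-BET151. These shares were singled out after their values were seen, and the smallest two-sided exact permutation p for 2 libraries against 2 is 0.333. The ePP libraries, of another batch and grown with I-BET151, had TEAD2 shares of 44.7% to 63.5% and TEAD4 shares of 7.94% to 11.6%. Such shares were not particular to cells grown with I-BET151, which the differentiation media do not list. TEAD2 and TEAD4 were 71.4% and 14.2% in DE, 72.0% and 7.75% in PP2, and 55.9% and 4.52% in SC-β. In hPSC they were 43.7% and 38.8%. TEAD3 as a level had no stable direction between the treatments (0.0066), and centring or quantile normalization gave -0.07 and -0.10.

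Among the upstream and target lists, no gene passed in the I-BET151 comparison. At an unadjusted p under 0.05 stood MAP4K4 of the 12 core cascade genes, 4 of 15 scaffold genes, VGLL4, and 3 of 16 other YAP/TAZ targets. Of all 16687 tested genes 15.2% stood there. Of the other targets, MYOF had an estimate of -2.10 (adjusted p = 0.0751, limma), from 6.26 and 7.46 TPM to 0.776 and 0.893 TPM. WWC1, a scaffold also called KIBRA, was 7.45 and 5.42 TPM with DMSO and 19.9 and 17.4 TPM with I-BET151 (1.41, adjusted p = 0.151). All 12 core cascade genes had estimates above 0, with a median of 0.46, against 0.16 for all tested genes, of which 10170 were above 0. Markers of other cells moved with the treatment: LUM, a mesenchyme marker, fell by 3.37 (adjusted p = 0.048), the mesenchyme sum was 258 and 133 TPM with DMSO and 95.7 and 62.0 TPM with I-BET151, and 6 of 8 tested mesenchyme markers were below 0. Their part in the Hippo-YAP values was not tested.

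The ePPs and PP2 were both pancreatic progenitors but came from different batches, so their levels are set side by side with no test and batch and cell type cannot be told apart. All 4 ePP libraries lay below the PP2 library for 6 of the 10 genes, where 43.5% of 16379 genes did. These were TEAD2 (mean log2 difference -3.02), TEAD3 (-2.45), TEAD4 (-2.11), CCN1 (-1.28), AMOTL2 (-0.49) and YAP1 (-0.43). WWTR1 was above PP2 in all 4 (0.29), and TEAD1, CCN2 and ANKRD1 lay on both sides. PP2 carried the mesenchyme and endothelial markers given above, whose sums were 1570 and 81.0 TPM against at most 95.1 and 0.820 TPM in the ePPs, and their part was not tested.

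The ePP-β and SC-β cells were both β-like, again in different batches. TEAD2 (-1.80), TEAD3 (-1.65) and TEAD4 (-1.20) were lower in both ePP-β libraries than in SC-β, where 36% of 17076 genes were. YAP1 (0.40), WWTR1 (0.42), CCN1 (0.36), CCN2 (1.49), ANKRD1 (1.73) and AMOTL2 (0.06) were higher, where 53.9% of genes were, and TEAD1 lay on both sides. SC-β had a mesenchyme sum of 2802 TPM against 59.8 and 47.4 TPM in ePP-β, and the part of those cells in the TEAD differences was not tested.

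As a description of which genes ran most closely beside YAP1, all 11253 protein-coding genes with a mean of at least 5 TPM were compared over the 9 group means of log2(TPM + 1). The 5 most alike were BRCA1, a DNA repair gene (r = 0.982), AFAP1, which encodes an actin filament-associated protein (r = 0.981), CENPO, a kinetochore gene (r = 0.980), EFCAB11 (r = 0.970) and DOLPP1 (r = 0.970). For CCN2 they were ENSG00000281039 (r = 0.940), SEMA6A, a semaphorin (r = 0.926), AEBP2, which encodes a partner of Polycomb proteins (r = 0.914), PGAP2 (r = 0.881) and CNBP (r = 0.881). These are the top ranks of a search over 9 points that share batches, and they carry no test.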

How the data were processed

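RNA was sequenced in 14 libraries of 9 groups, grouped by sample title. Per the paper's methods and the labels, the authors aligned paired reads to GRCh38 with HISAT2 2.1.0, assembled transcripts with StringTie, summed transcripts by gene and deposited TPM per gene. Which annotation release was used, and whether strand was, is not given in the sources used here. The authors tested counts with DESeq2. TPM are not counts and keep no depth, so no count test, interval or detection floor was used, and precision rests on 2 libraries per group.

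Symbols and positions came from GENCODE v44 (60370 of 60624 identifiers matched). A gene was kept where 2 or more libraries of a fit had 1 TPM or more, and log2(TPM + 1) was fitted with limma 3.58.1 in R 4.3.3 (eBayes with an intensity trend, two-sided). This scale understates changes of low genes. Genes passed at an adjusted p under 0.05 (Benjamini-Hochberg over all genes of the fit) and a log2 fold change beyond 1. Fits stayed within a batch. Single libraries were compared without a test. The code was tested on simulated data.

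The 10 genes, the pathway and marker lists and the tests were chosen with earlier results of these data known. The naming rule took, from each list and in each direction, the 3 passing genes with the largest fold changes, and for YAP1 and CCN2 the 5 genes most like them. Median centring of levels set side by side across batches was added after the data were seen. In the I-BET151 comparison, where hardly any list gene passed, MAP4K4, VGLL4, MYOF and WWC1 were chosen after their values were seen. Some list genes that the rule would name are not reported here. Promoter windows came from RefSeq. Alternatives tried were other pseudocounts (0.1 and 0.01), other filters (none or 5 TPM), median centring, quantile normalization, no intensity trend, all 10 replicated libraries in a fit, the replicate number as a block, and leaving out each library.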

Additional observations from a re-analysis of the deposited data

Results flagged for a closer look

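For 4 genes of the pathway lists, both ePP-β libraries lay on one side of all 4 ePP libraries while SC-β lay on the opposite side of PP2. Both PP2 and SC-β are single libraries of another batch, and the difference between the routes was not tested. No size limit was set on the difference between PP2 and SC-β, which was only 0.245 on the log2 scale for CCDC80. How many of all genes show this pattern was not counted, so the 4 genes cannot be called particular to the pathway. TAOK1, a kinase upstream of MST, was 14.9 TPM in PP2 and 6.47 TPM in SC-β, but its mean was 13.3 TPM in ePP and 19.2 TPM in ePP-β. TGFB2, a TGFβ ligand and YAP target, was 9.89 TPM in PP2 and 5.92 TPM in SC-β, but its mean was 1.47 TPM in ePP and 31.8 TPM in ePP-β. GADD45A, a stress-response gene, was 72.7 TPM in PP2 and 106 TPM in SC-β, but its mean was 105 TPM in ePP and 58.5 TPM in ePP-β. CCDC80, a matrix gene, was 7.96 TPM in PP2 and 9.62 TPM in SC-β, but its mean was 3.92 TPM in ePP and 1.87 TPM in ePP-β.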

How the results depend on the processing

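The comparison of ePP-β with ePP was the steadiest: 4 to 6 of the 10 genes passed as lower and 0 as higher under every alternative. The counts over all genes moved beyond 1.5 times with the 5 TPM filter (2058 higher), with quantile normalization (2866 lower) and without single libraries (1623 to 3273 higher). Against 3237 higher and 1783 lower, centring gave 2924 and 2377 and quantile normalization 2592 and 2866. The passage result was weak. Its count of higher genes among the 10 was 0 without the filter, after median centring, without the intensity trend and with all 10 libraries, and 0 to 2 without single libraries, where a group left with 1 library is assumed to vary like the others. Over all genes the passage comparison gave 0 higher and 0 lower without the filter or after centring, 10 and 3 after quantile normalization, 0 and 1 without the trend and 0 and 1 with all 10 libraries, 4 lower with the 5 TPM filter, and 0 to 453 higher and 0 to 25 lower without single libraries. YAP1 turned to -0.11 and WWTR1 to -0.10 after centring, and WWTR1 to -0.042 after quantile normalization. Without single libraries YAP1 ranged from -0.018 to 0.20.

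For I-BET151 against DMSO, 0 of the 10 genes passed under every alternative. Over all genes, 0 higher and 0 lower passed with either smaller pseudocount or without the filter, 119 lower after centring, 3 higher and 135 lower after quantile normalization, 518 higher and 1155 lower with all 10 libraries, and 7 to 283 higher and 100 to 751 lower without single libraries. TEAD3 turned to -0.073 after centring and -0.10 after quantile normalization. Without single libraries TEAD3 ranged from -0.54 to 0.55, CCN1 from -0.45 to 1.31, CCN2 from -0.996 to 0.53 and ANKRD1 from -0.99 to 1.91. Such a fit sets both replicate numbers of one group against 1 of the other, and these genes differed strongly between replicate numbers. Between libraries of the same number, CCN1 was higher and CCN2 lower with I-BET151 in both. The causes were not tested.

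With the replicate number as a block, 828 genes were higher and 1466 lower with I-BET151, against 1 and 34 without it, and 64 higher and 2 lower at passage 21. Of the 10 genes, still 0 passed for I-BET151, and the other counts over the 10 genes stayed at 1 and 5. For I-BET151, 5 of the 10 had an unadjusted p under 0.05 and 1 an adjusted p under 0.05 (TEAD2, 0.82, adjusted p = 0.0376, limma). The shares of all tested genes at these thresholds with the block are not given here, so these counts have no background to be read against. Replicate differences correlated between DMSO and I-BET151 at r = 0.675 over 16687 genes, and between ePP-P9 and ePP-P21 at r = -0.0093. The labels do not say that equal numbers share a culture, and there were only 2 pairs, so the block stays an alternative.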

Other observations

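In batch 3, upstream pathway genes also differed between the replicates of both groups, values that no comparison of the report covers and that were picked after they were seen. The scaffold SCRIB was 66.7 and 25.6 TPM in the DMSO libraries and 193 and 38.1 TPM in the I-BET151 libraries. NF2, the merlin gene, was 9.12 and 5.41 TPM with DMSO and 14.8 and 6.27 TPM with I-BET151, and the protocadherin DCHS1 was 18.3 and 5.69 TPM and then 19.5 and 8.71 TPM. AJUBA, a LIM protein that binds LATS kinases, ran the other way, with 39.7 and 97.7 TPM in the DMSO libraries and 18.3 and 62.3 TPM in the I-BET151 libraries. In both groups the replicate 2 library thus had less of SCRIB, NF2 and DCHS1 and more of AJUBA, CCN1, CCN2 and ANKRD1 than the replicate 1 library.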
